A study of Mus musculus with 12 samples.

Results

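The genes described here are Xcl1, Ccl3, Ccl4 and Ccl5, chemokine genes that activated T cells are known to transcribe, and they are 4 of the 31053 genes in the deposited feature tables. They were taken by name, with earlier results of these data known. They were counted in T cells from the pancreatic islets of female mice of the NOD strain, which develops autoimmune diabetes spontaneously. The mice were pre-diabetic and 12 weeks old, no group was treated, and all 4 biological replicates are of this 1 kind, so each comparison is between cells of the same library. Whether a replicate is 1 mouse or a pool is not stated in the labels, so the p-values measure only the spread between these 4 samples. Live cells positive for the β chain of the T cell receptor (TCR) were sorted, and each replicate gave an mRNA library with counts of 4 antibodies (CD62L, CD11a, CD4 and CD8b) and a TCR library.

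Chemokines are small secreted proteins that attract cells carrying the matching receptor. XCL1 is the ligand of XCR1, a receptor found on the dendritic cells that cross-present antigen to CD8 T cells. CCL3, CCL4 and CCL5 are CC chemokines that draw in T cells, monocytes and macrophages, and CCL3 and CCL5 bind the receptor CCR1. Stimulation through the TCR switches on transcription of Xcl1, Ccl3 and Ccl4, whereas memory CD8 T cells are known to hold Ccl5 mRNA already at rest.

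On the mouse assembly GRCm38.p6, as given by RefSeq, Xcl1 (ENSMUSG00000026573) lies at chr1:164931644-164935522. The other members lie close together on chromosome 11, with Ccl5 (ENSMUSG00000035042) at chr11:83525778-83530518, Ccl3 (ENSMUSG00000000982) at chr11:83647843-83649378 and Ccl4 (ENSMUSG00000018930) at chr11:83648624-83664683. The RefSeq spans of Ccl3 and Ccl4 overlap by 755 bases, and how reads in that stretch were assigned was not given in the sources used here, so a part of the counts of this pair may be exchanged between them. The RefSeq promoter table held 2 of the 4 genes, and the 250 bases before the start of each are shown because these genes respond to the same TCR signal. Both are written 5′ to 3′ on the minus strand, which is the strand of the gene, and capitals mark GGAAA, the core of the motif of the TCR-activated factor NFAT, or its reverse complement TTTCC.
Xcl1, chr1:164935523-164935772: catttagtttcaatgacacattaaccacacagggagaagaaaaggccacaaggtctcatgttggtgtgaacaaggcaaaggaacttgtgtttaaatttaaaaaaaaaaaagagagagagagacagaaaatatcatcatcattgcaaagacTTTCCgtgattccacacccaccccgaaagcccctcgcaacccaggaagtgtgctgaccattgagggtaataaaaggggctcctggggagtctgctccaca
Ccl3, chr11:83649379-83649628: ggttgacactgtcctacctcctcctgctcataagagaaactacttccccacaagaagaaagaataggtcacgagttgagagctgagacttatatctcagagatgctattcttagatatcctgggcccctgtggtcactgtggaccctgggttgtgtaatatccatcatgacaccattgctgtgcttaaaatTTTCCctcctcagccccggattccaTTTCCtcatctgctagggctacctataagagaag
The Xcl1 window held 1 match, 100 bases before the start, and the Ccl3 window held 2, 59 and 34 bases before it. On either strand, 55.6% of 32851 promoters of the same length held this motif, so a match is common. TGTGGT, the core of the Runx motif, stood once in each window (227 and 122 bases before the start), as it did in 14% of all promoters. Searched on both strands, TGANTCA (the AP-1 motif, in 6.75% of promoters) and TGACGTCA (the CRE motif, in 1.55%) had no match in these windows. The GGAAA and TGTGGT matches did not overlap.

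Replicates 1 to 4 held 27423 cell barcodes in all, 92.1% of them with an mRNA count of a CD3 chain gene, and 22035 were kept. Kept barcodes had a median of 2631 to 4161 RNA UMIs per library (unique molecular identifiers, each counting a captured molecule). Replicates 3 and 4 stood apart: 36.0% and 29.0% of their kept barcodes had fewer than 20 CD11a counts, against 4.19% and 5.27% in replicates 1 and 2. Any pair of libraries shared 36 to 102 barcode sequences. CD8 cells (fewer than 20 CD4 antibody counts and at least 2 UMIs over Cd8a and Cd8b1), Treg (at least 40 CD4 counts, no Cd8a or Cd8b1 UMI, at least 1 UMI of Foxp3, the regulatory T cell factor) and CD4 conventional cells (the same without a Foxp3 UMI) came to 16188 cells. Each was split by the antibody for CD62L, the lymph node homing receptor that naive T cells carry and activated cells shed, into CD62L-low (at most 3 counts) and CD62L-high (at least 10). A library held 377 to 739 CD62L-low and 110 to 533 CD62L-high CD8 cells, 135 to 234 and 34 to 75 Treg, and 1085 to 1812 and 439 to 1501 CD4 conventional cells. Levels are given as CPM, a gene's UMIs per 1000000 RNA UMIs of the population in that library, and shares of cells with a UMI are given after thinning every cell to 1500 UMIs. Among the CD62L-low cells, thinning left out 7 to 222 CD8 cells, 2 to 14 Treg and 40 to 226 CD4 conventional cells per library, which were shallower.

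All 4 genes were most abundant in CD62L-low CD8 cells. After thinning, Ccl5 was read in 55.2% ± 18.9 (SD, n = 4 libraries) of these cells, Xcl1 in 21.4% ± 3.0, Ccl4 in 20.8% ± 10.9 and Ccl3 in 9.58% ± 5.66. In CD62L-low CD4 conventional cells the shares were 13.4% for Ccl5, 2.12% for Xcl1, 2.46% for Ccl4 and 1.28% for Ccl3. At least 1 of the 4 genes was read in 39.7%, 59.6%, 78.9% and 79.7% of the CD62L-low CD8 cells of replicates 1 to 4, and all 4 genes in 0.81%, 1.39%, 1.55% and 3.0%. At least 1 member was thus read in a larger share of CD8 than of CD4 conventional cells, where the share was 9.60% to 21.6%. Ccl5 was the member read most often and Ccl3 the least. How unevenly the UMIs were spread over these cells is given further below.

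**Figure D1:**
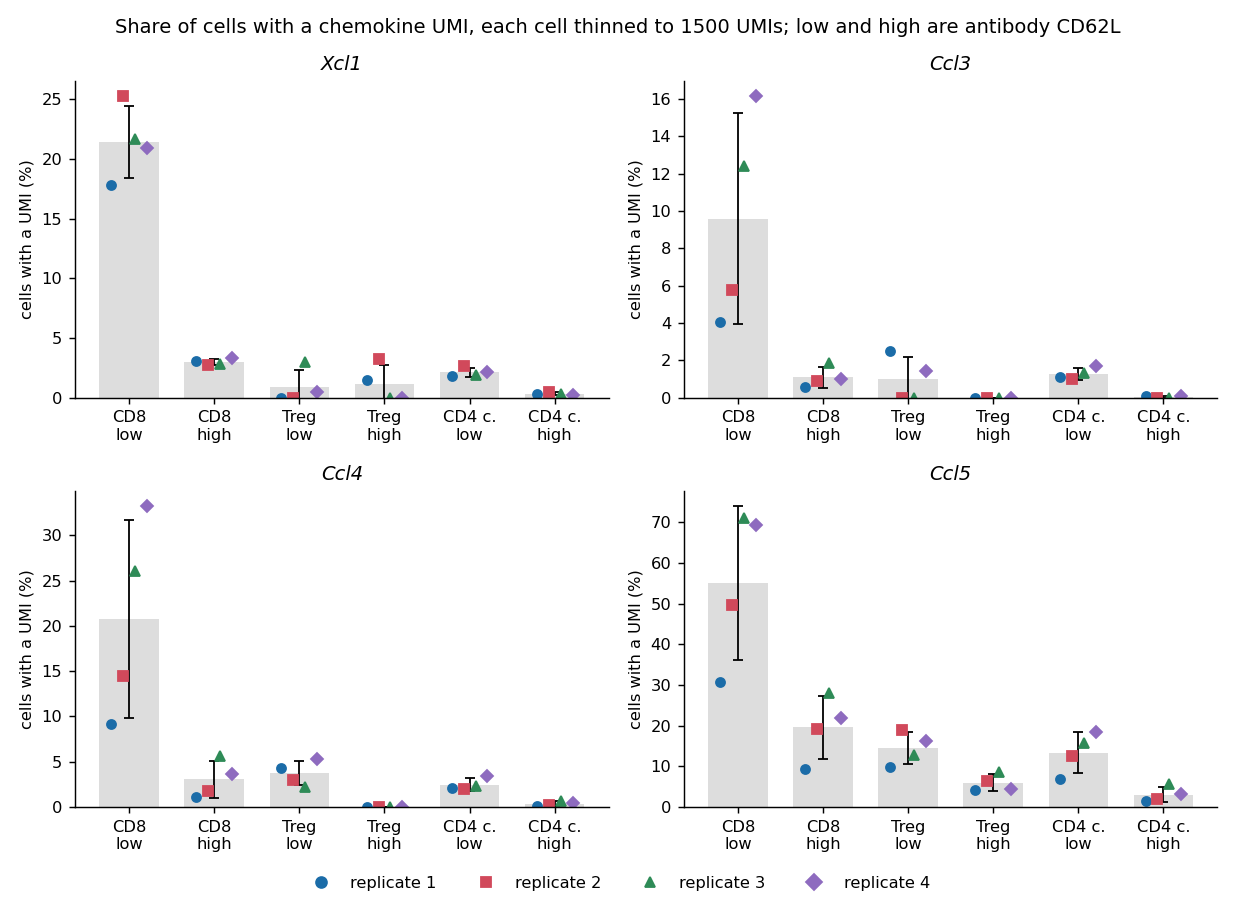
Share of cells (%) with at least 1 UMI of each gene after thinning every cell to 1500 UMIs, in CD8 cells, Treg and CD4 conventional cells (CD4 c.), each CD62L-low and CD62L-high. Bars are means of 4 libraries, error bars SD and symbols single libraries; CD62L-low CD8 cells are highest for all 4 genes, and for Ccl3, Ccl4 and Ccl5 replicates 3 and 4 lie above replicates 1 and 2 there.

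CD62L-low CD8 cells were first set against CD62L-low CD4 conventional cells, to ask which of the effector lineages in the islets carries these transcripts. Xcl1, whose product attracts cross-presenting dendritic cells, had 762, 807, 465 and 782 CPM in CD8 cells of replicates 1 to 4, against 99.2, 97.7, 51.3 and 91.4 in CD4 conventional cells. The 2 populations did not overlap, and replicate 3 was the lowest library in both. Xcl1 was 8.60-fold higher in CD8 cells (log2 fold change 3.10 ± 0.07 SE, adjusted p = 4.3e-09 by edgeR's quasi-likelihood test), higher in 4 of 4 libraries. Ccl3, which encodes a ligand of CCR1, had 68.4, 97.1, 170 and 251 CPM in CD8 cells and 19.8, 27.5, 36.7 and 36.3 in CD4 conventional cells. Replicates 3 and 4 were the high libraries on both sides. Its log2 fold change was 2.23 ± 0.18 (adjusted p = 0.00028).

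Ccl4, which encodes a chemokine that attracts monocytes and T cells, had 239, 355, 466 and 945 CPM in CD8 cells, against 72.5, 107, 115 and 174 in CD4 conventional cells, without overlap. Its log2 fold change was 2.02 ± 0.13 (adjusted p = 2.7e-05). Ccl5 had 2455, 4836, 6881 and 7437 CPM in CD8 cells and 416, 473, 958 and 881 in CD4 conventional cells. Every CD8 value thus lay above every CD4 value although the CD8 libraries spread widely, and the log2 fold change was 3.0 ± 0.13 (adjusted p = 1.2e-05). All 4 genes were called higher in 4 of 4 libraries, where 41.6% of all 10829 tested genes were called, 22% higher and 19.6% lower. The median log2 fold change was 2.62 over the 4 genes and 0.00308 over all genes.

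More CD8 cells were positive for each gene, and for Xcl1 and Ccl5 a positive cell also held more UMIs. The thinned share of positive cells was higher in CD8 cells in 4 of 4 libraries for each gene, by 19.3 ± 2.71 points for Xcl1, 8.31 ± 5.36 for Ccl3, 18.3 ± 10.3 for Ccl4 and 41.8 ± 14.3 for Ccl5 (exact permutation test over 4 pairs, two-sided p = 0.13, the smallest 4 pairs allow). A positive cell held 58.7 Ccl5 UMIs on average in CD8 cells and 19.4 in CD4 conventional cells, higher in 4 of 4 libraries. For Xcl1 the figures were 16.5 and 11.0 UMIs, also higher in 4 of 4. For Ccl3 they were 5.64 and 6.75 and for Ccl4 12.1 and 15.4, higher in CD8 cells in 1 and 2 of 4 libraries. After thinning, a positive cell held 22.2 Ccl5 UMIs in CD8 cells and 9.87 in CD4 conventional cells, and 3.77 and 2.82 of Xcl1, both higher in 4 of 4 libraries. Thinned Ccl4 was lower in CD8 cells in 4 of 4 libraries (4.55 and 6.31 UMIs), and thinned Ccl3 was at 2.41 and 3.14 (higher in 2 of 4). With each cell counted for at most 3 UMIs of a gene, the log2 fold change of Ccl5 was 1.63, while Xcl1, Ccl3 and Ccl4 were at 2.73, 2.58 and 2.59. Without replicates 3 and 4, Ccl5 did not pass (2.99, adjusted p = 0.115), and the call of Ccl3 was lost with 1 cell per clonotype (1.97, adjusted p = 0.051).

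Among expanded clones alone, CD8 cells were higher for all 4 genes (2.46, 1.67, 1.51 and 3.21 on the log2 scale for Xcl1, Ccl3, Ccl4 and Ccl5), and each was called. Among cells whose clonotype was seen once, the log2 fold changes were 3.81, 2.97, 2.51 and 2.68, and Ccl4 was not called there (adjusted p = 0.090). In replicates 3 and 4, 35.5% and 21.7% of the CD62L-low CD8 cells had fewer than 20 CD11a counts. Among cells with at least 20, the 4 log2 fold changes were 3.14, 2.26, 2.05 and 3.04. Median depths were 4772, 4817.5, 3754 and 3862 RNA UMIs in the CD62L-low CD8 cells of replicates 1 to 4, against 3727, 4008, 3680 and 3047.5 in the CD62L-low CD4 conventional cells.

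Treg carried Ccl5 and Ccl4 but few Ccl3 UMIs. Ccl3 had 6.18, 1.98, 0.93 and 5.45 CPM in CD62L-low Treg, which are 8, 4, 1 and 8 UMIs, against 19.8, 27.5, 36.7 and 36.3 in CD62L-low CD4 conventional cells. The groups did not overlap, and Ccl3 was lower in Treg by edgeR's test (log2 fold change −3.07 ± 0.29, adjusted p = 3.7e-07, lower in 4 of 4 libraries). It was 1 of the 4 genes called, where 31.4% of all genes were called, 16.5% higher and 14.9% lower. The share of cells with a Ccl3 UMI did not move in the same way, at 0.98% of thinned Treg and 1.28% of thinned CD4 conventional cells (difference −0.295 ± 1.21 points, exact permutation p = 0.75). A positive cell held 1.30 UMIs in Treg and 6.75 in CD4 conventional cells before thinning, and 1.29 and 2.37 after it in the 2 libraries where thinned Treg held any.

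Ccl4 had 51.0, 38.6, 151 and 84.5 CPM in CD62L-low Treg and 72.5, 107, 115 and 174 in CD4 conventional cells, which overlap (log2 fold change −0.68 ± 0.39, adjusted p = 0.32). The high Treg value of replicate 3 came from 5 positive cells with 32.4 UMIs each on average, against 5.50 to 7.09 in the other libraries. Ccl5 had 267, 335, 190 and 232 CPM in Treg and 416, 473, 958 and 881 in CD4 conventional cells. It was lower in Treg in 4 of 4 libraries but did not pass (−1.35 ± 0.44, adjusted p = 0.12, or −1.44 and 0.029 without the replicate as a block), and its thinned share of positive cells was 14.5% in Treg and 13.4% in CD4 conventional cells. Xcl1 had 7.72, 7.43, 58.8 and 2.04 CPM in Treg against 99.2, 97.7, 51.3 and 91.4 in CD4 conventional cells. Replicate 3 went against the other libraries, Xcl1 was not called (−2.46 ± 0.96, adjusted p = 0.17), and without replicate 3 it was (−4.07).

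CD62L-low and CD62L-high cells of a lineage were compared next, since CD62L separates cells that can recirculate through lymph nodes from activated ones. In CD8 cells all 4 genes were higher on the CD62L-low side. Xcl1 had 762, 807, 465 and 782 CPM in CD62L-low CD8 cells, against 49.3, 29.9, 42.3 and 29.9 in CD62L-high CD8 cells, a 15.9-fold difference with no overlap (log2 fold change 3.99 ± 0.21, adjusted p = 4.3e-05). Ccl4 had 57.3, 55.2, 100 and 67.9 CPM in CD62L-high CD8 cells, far under its CD62L-low values of 239 to 945 (2.55 ± 0.36, adjusted p = 0.0099). Ccl3 had 24.3, 1.58, 18.1 and 11.7 in CD62L-high cells, against 68.4 to 251 in CD62L-low cells (2.90 ± 0.60, adjusted p = 0.032). Most of the Ccl3 in the CD62L-high cells of replicate 1 sat in few cells, with 64 UMIs in 4 cells.

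Ccl5 was the member that CD62L-high CD8 cells also held. It had 2455, 4836, 6881 and 7437 CPM in CD62L-low CD8 cells and 493, 1374, 3154 and 1798 in CD62L-high CD8 cells, and it was read in 55.2% of thinned CD62L-low and 19.6% of thinned CD62L-high cells. The ranges overlapped, since replicate 3 on the CD62L-high side lay above replicate 1 on the CD62L-low side, but within each library the CD62L-low side was higher (1.71 ± 0.24, adjusted p = 0.012). All 4 genes were called, against 40.2% of all genes (21.1% higher, 19% lower). Without replicate 2, only Xcl1 was called, and without replicate 4 only Xcl1 and Ccl4, and the log2 fold changes of Ccl3, Ccl4 and Ccl5 were 2.77, 2.55 and 1.71 without replicate 2. Without the replicate as a block, Ccl5 was not called (1.55, adjusted p = 0.099). A positive cell held 16.5 Xcl1 UMIs on the CD62L-low side and 2.51 on the CD62L-high side (3.77 and 1.33 after thinning), and with each cell counted for at most 3 UMIs the log2 fold change of Xcl1 was 1.95.

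CD62L-high CD4 conventional cells were nearly free of Xcl1, Ccl3 and Ccl4. Ccl3 had 116, 183, 228 and 268 UMIs in CD62L-low CD4 conventional cells and 1, 0, 3 and 7 in CD62L-high ones, and the ratio of the summed CPM was 42.6 (95% interval 23.7 to 85.7, exact, counting error only). Its log2 fold change was 5.18 ± 0.28 (adjusted p = 6.3e-09). Xcl1 had 99.2, 97.7, 51.3 and 91.4 CPM in CD62L-low cells and 28.6, 8.16, 3.83 and 1.77 in CD62L-high cells (2.76 ± 0.62, adjusted p = 0.040). The CD62L-high value of replicate 1 rested largely on 1 cell with 118 of its 164 Xcl1 UMIs. Ccl4 had 72.5, 107, 115 and 174 CPM in CD62L-low and 2.96, 0.54, 3.38 and 29.8 in CD62L-high cells (3.63 ± 0.58, adjusted p = 0.017), and 1 cell held 90 of the 101 Ccl4 UMIs of replicate 4 on the CD62L-high side. Ccl5 had 416, 473, 958 and 881 CPM in CD62L-low and 30.5, 21.2, 131 and 91.8 in CD62L-high cells (3.24 ± 0.26, adjusted p = 0.0027). None of these 4 pairs of groups overlapped, and the share of all genes without such overlap is not given here. All 4 genes were called, and 47.3% of all genes were called (23.9% higher, 23.3% lower). Xcl1 did not pass without replicate 2 (2.65), 3 (2.58) or 4 (2.40), nor Ccl4 without replicate 1 (3.41), 2 (3.43) or 3 (3.29). With the barcodes rich in B cell or myeloid mRNA kept in, the log2 fold change of Ccl3 was 1.89 and that of Ccl4 was 2.34 (adjusted p = 0.054).

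In Treg, Ccl4 sat on the CD62L-low side almost alone, with 430 UMIs over the 4 libraries in CD62L-low and 3 in CD62L-high Treg (ratio of CPM 42.3, 95% interval 14.4 to 206, exact, counting error only). Ccl5 had 267, 335, 190 and 232 CPM in CD62L-low Treg and 230, 134, 118 and 92.4 in CD62L-high Treg (0.78 ± 0.18, adjusted p = 0.021). The groups overlapped, the call was lost without the replicate as a block (0.78, adjusted p = 0.25) and without replicate 2 (0.65), 3 (0.82) or 4 (0.59). Both tested genes were called in Treg, where 3.94% of all genes were called (2.24% higher, 1.69% lower), and Xcl1 and Ccl3 were too sparse to test. Xcl1 in CD62L-high Treg came to 3, 32, 1 and 4 UMIs, the 32 lying in 2 cells of replicate 2.

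The CD62L effect itself was compared between lineages in 1 model. It was not called different for any of the 4 genes by edgeR, where 5.06% of all genes were called (1.89% higher, 3.17% lower). The difference, CD8 minus CD4 conventional, was 1.31 ± 0.64 for Xcl1, −2.35 ± 1.07 for Ccl3, −1.15 ± 0.65 for Ccl4 and −1.56 ± 0.39 for Ccl5, with adjusted p of 0.30, 0.26, 0.37 and 0.056. By edgeR, 1 of the 4 was under an unadjusted p of 0.05, Ccl5, and DESeq2 called the same gene (−1.68).

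How far a few cells carried these sums was then measured by ranking the cells of a population by their UMIs of each gene. In CD62L-low CD8 cells, 50% of all Xcl1 UMIs lay in 8, 15, 11 and 14 cells of replicates 1 to 4, out of 377 to 739. For Ccl3 it was 3, 2, 12 and 21 cells, for Ccl4 5, 8, 18 and 27, and for Ccl5 18, 48, 82 and 96. Cd3e, a gene of the TCR complex that every T cell transcribes, needed 81 to 148 cells, so Ccl5 came nearest to it, and the fewest cells were needed for Ccl3 in replicates 1 and 2 and for Xcl1 in replicates 3 and 4. The highest 1% of CD8 cells held 36.9% ± 7.4 of the Xcl1 UMIs, 49.2% ± 19.0 of Ccl3, 34.7% ± 9.6 of Ccl4, 11.1% ± 5.2 of Ccl5 and 5.32% of Cd3e (n = 4 libraries each).

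In CD62L-low CD4 conventional cells the sums of Xcl1, Ccl3 and Ccl4 were carried by very few cells. There 50% of the Xcl1 UMIs lay in 3, 4, 1 and 4 cells of 1085 to 1812, of Ccl3 in 1, 2, 3 and 3, of Ccl4 in 2, 2, 3 and 4 and of Ccl5 in 8, 22, 27 and 33. In replicate 3, 1 cell with 180 UMIs thus held more than 50% of all 319 Xcl1 UMIs of its 1302 cells. That cell had 42386 RNA UMIs, against a population median of 3680. The highest 1% of cells held 84.6% of Xcl1, 91.5% of Ccl3, 89.0% of Ccl4 and 42.0% of Ccl5, against 5.58% of Cd3e. Thinning every cell to 1500 UMIs left this nearly as it was, at 80.4%, 94.99%, 87.9% and 40.8%, and 3.89% for Cd3e. The highest 1% of thinned cells was 11 and 13 cells in replicates 1 and 2. Only 11 and 12 thinned cells there had a Ccl3 UMI, so its share was fixed at 100%. These shares thus reflect how few cells were positive as well as how unevenly positive cells shared the UMIs. In CD8 cells the thinned figures were 30.2% for Xcl1, 43.6% for Ccl3, 33.4% for Ccl4 and 9.82% for Ccl5.

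**Figure D2:**
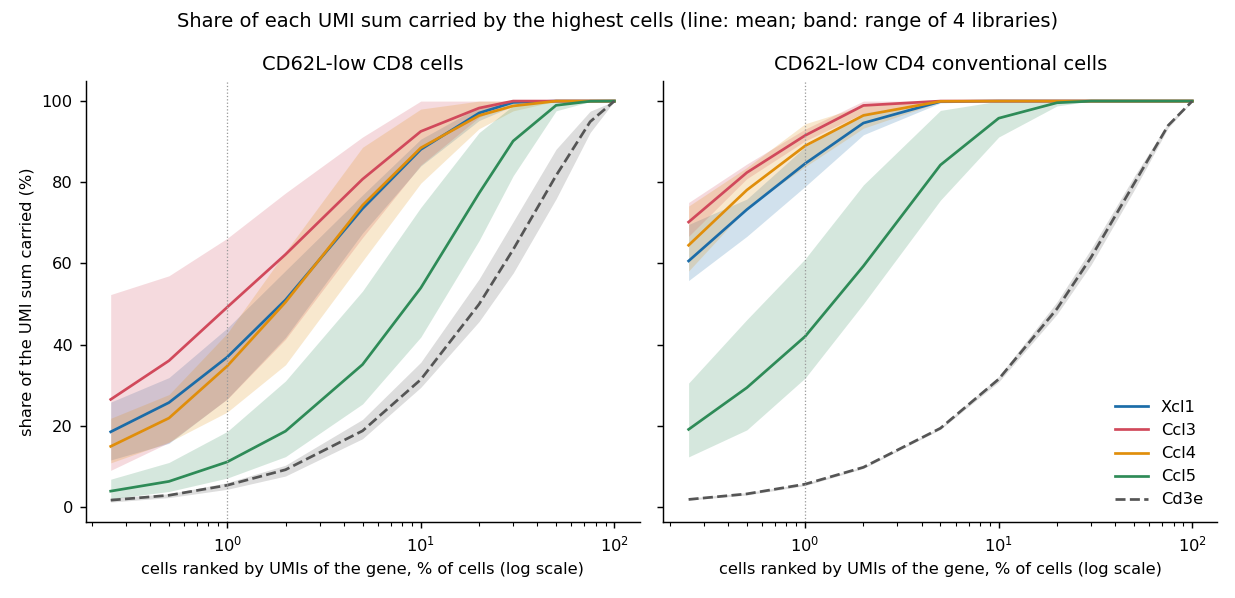
Share (%) of each gene's UMI sum carried by the highest-ranked cells, against the percent of cells counted from the top (log axis), in CD62L-low CD8 cells (left) and CD62L-low CD4 conventional cells (right). Lines are means and bands the range of 4 libraries; the dotted line marks 1% of cells, where the Xcl1, Ccl3 and Ccl4 lines are at 36.9%, 49.2% and 34.7% in CD8 cells and at 84.6%, 91.5% and 89.0% in CD4 conventional cells, with Cd3e at 5.32% and 5.58%.

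The CD8 cells that carried 50% of a sum were deeper than their population, which a ranking by UMIs favours. Of all 1458 paired CD62L-low CD8 cells, 945 were in clones of at least 2 cells, for comparison with the counts that follow. Over the 4 libraries the cells that carried 50% of the sum were 48 of 2366 CD8 cells for Xcl1, with a median depth 3.67 to 6.73 times that of all CD62L-low CD8 cells of their library, and 36 of the 39 with a paired receptor were in clones of at least 2 cells, spread over 24 clones. For Ccl3 they were 38 cells, with 32 of 33 paired cells expanded in 16 clones, and for Ccl4 58 cells, with 51 of 52 in 23 clones. For Ccl5 they were 244 cells, 176 of 197 paired cells being expanded, in 67 clones, with depths only 1.14 to 1.93 times the median. For each gene, all of these cells had at least 20 CD11a counts. In CD62L-low CD4 conventional cells, where 1787 of 3904 paired cells were expanded, all 11, 8 and 10 paired cells that carried 50% of Xcl1, Ccl3 and Ccl4 were expanded. They lay in 10, 7 and 10 clones, so few were clone mates. For Ccl5 it was 39 of 66, with depths 1.09 to 1.23 times the median.

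The CD8 cells carrying 50% of the Xcl1 sum and those carrying 50% of the Ccl5 sum had no cell in common in any library. The Ccl5 cells were 18, 48, 82 and 96 in replicates 1 to 4. Such sets are small parts of their populations, and the overlap expected by chance is not given here. With Ccl3 and Ccl4 there was some overlap: the Xcl1 cells (8, 15, 11 and 14 in replicates 1 to 4) included 0 of 3, 2 of 2, 1 of 12 and 1 of 21 Ccl3 cells and 1 of 5, 3 of 8, 1 of 18 and 0 of 27 Ccl4 cells. The Ccl3 cells lay largely inside the Ccl4 ones, 3 of 3, 2 of 2, 10 of 12 and 12 of 21 in replicates 1 to 4, which are 3 of 5, 2 of 8, 10 of 18 and 12 of 27 of the Ccl4 cells. Co-detection of Ccl3 and Ccl4 in thinned cells went the same way as their shared top cells. Ccl4 was read in 60.0%, 69.0%, 73.4% and 77.3% of the Ccl3-positive CD62L-low CD8 cells and in 7.04%, 11.2%, 19.4% and 24.8% of the Ccl3-negative ones. Ccl5 was read in 91.2%, 80.8%, 96.3% and 93.0% of Ccl4-positive cells, against 24.7%, 44.4%, 62.0% and 57.6% of Ccl4-negative cells. Xcl1 was read in 38.2%, 45.2%, 20.7% and 22% of Ccl4-positive and in 15.8%, 21.9%, 21.99% and 20.4% of Ccl4-negative cells, higher in replicates 1 and 2 and close in 3 and 4. Xcl1 did not pair with Ccl5 evenly: Ccl5 was read in 53.0%, 63.0%, 65.2% and 54.0% of Xcl1-positive and in 26.0%, 45.2%, 72.6% and 73.5% of Xcl1-negative cells, higher in replicates 1 and 2 and lower in 3 and 4. The overlap of the Ccl3 and Ccl4 loci may add to the co-detection of that pair, and its part was not tested.

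Since the top CD8 cells were often clone mates, the genes were followed over clone size in CD62L-low cells. In CD8 cells Xcl1 averaged 210 CPM in cells whose clonotype was seen once, 598 in clones of 2 to 4 cells and 973 in clones of 5 or more. Ccl3 averaged 28.5, 60.9 and 208, and Ccl4 87.4, 407 and 661. Ccl5 averaged 3672, 5630 and 5438, so it was already abundant in single-clone cells and did not climb between the larger classes.

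**Figure D3:**
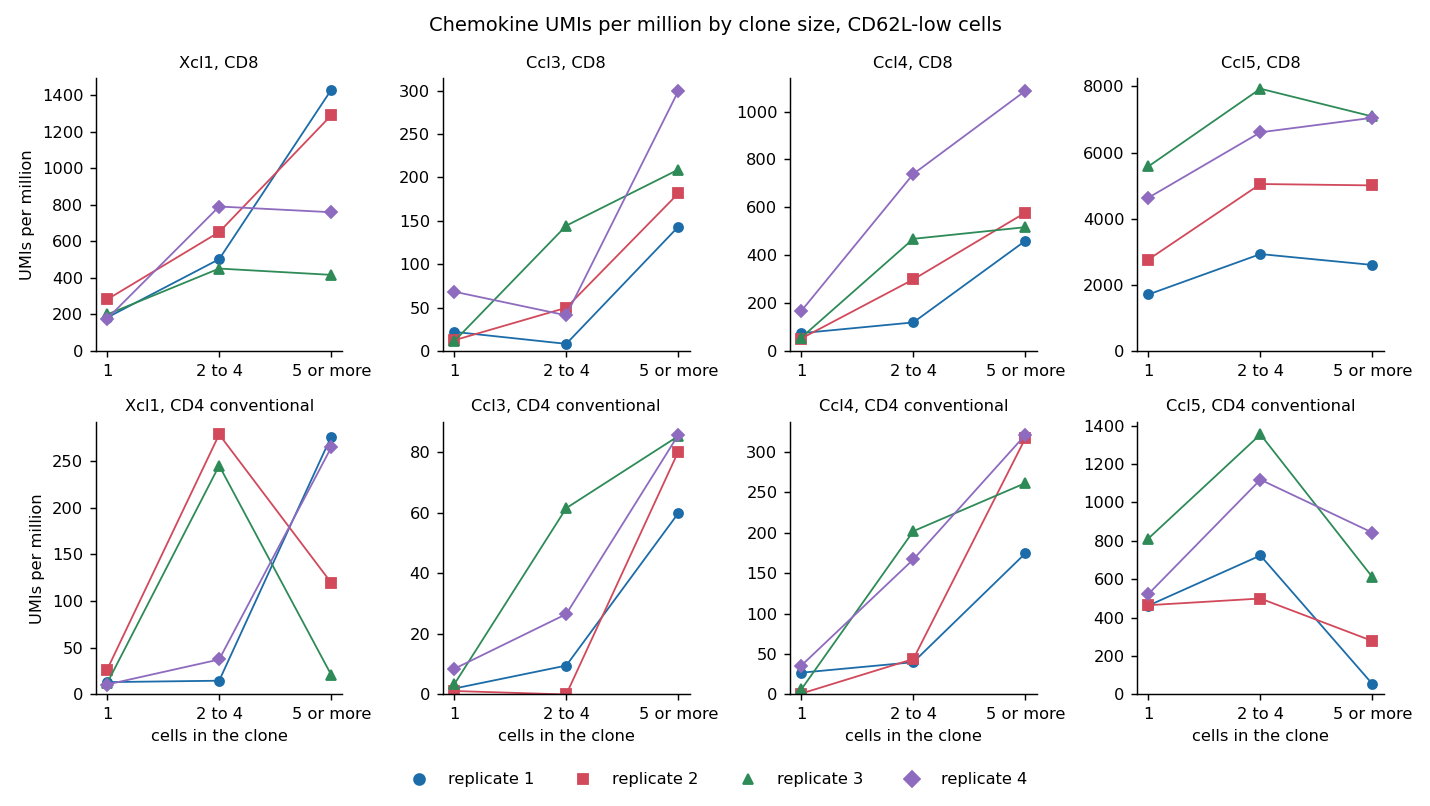
CPM of each gene by clone size (1 cell, 2 to 4 cells, 5 or more cells) in CD62L-low CD8 cells (top row) and CD62L-low CD4 conventional cells (bottom row), each line 1 library. In CD8 cells Xcl1, Ccl3 and Ccl4 are higher in clones of 5 or more than in single-clone cells in every library, and in CD4 conventional cells Ccl5 is not.

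In CD8 cells all 4 genes were called higher in clones of at least 2 cells than in single-clone cells, where 37.2% of all genes were called (19.1% higher, 18.1% lower). Ccl4 had 360, 520, 512 and 1056 CPM in expanded CD8 cells, against 74.5, 52.2, 56.0 and 167 in single-clone cells, without overlap (log2 fold change 2.72 ± 0.14, adjusted p = 2.7e-08). Ccl3 had 103, 154, 202 and 276 against 22.1, 12.3, 11.2 and 68.3, again without overlap (2.67 ± 0.32, adjusted p = 0.0014). Xcl1 had 1156, 1155, 420 and 762 in expanded against 183, 282, 200 and 177 in single-clone cells (1.90 ± 0.32, adjusted p = 0.022). Replicate 3 gave the smallest Xcl1 difference, and its largest clone held 99 of its 399 paired CD62L-low CD8 cells. Ccl5 had 2698, 5016, 7177 and 7012 against 1709, 2765, 5581 and 4634, a small step with overlapping ranges (0.51 ± 0.08, adjusted p = 0.0016). Without the replicate as a block, Ccl5 was not called (0.47, adjusted p = 0.49).

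Expanded CD8 cells were also the deeper ones, with median RNA UMIs of 7369.5, 5695, 7120 and 7420 in replicates 1 to 4, against 4726, 5059, 4912 and 3868 in single-clone CD8 cells. After thinning, 32.3% of expanded and 7.63% of single-clone cells had an Xcl1 UMI, 13.0% and 1.66% a Ccl3 UMI, 29.5% and 6.0% a Ccl4 UMI, and 66.7% and 31.6% a Ccl5 UMI. Each was higher in 4 of 4 libraries (exact permutation p = 0.13). A few large clones weighed on these sums. The clone with most Ccl3 UMIs held 75%, 58.0%, 47.8% and 32.1% of the Ccl3 of all paired CD62L-low CD8 cells of its library, with 9.61%, 6.16%, 24.8% and 13.5% of those cells, and the clone with most Xcl1 held 46.5%, 31.1%, 29.3% and 26.8%. With 1 cell kept per clonotype none of the 4 genes was called by edgeR: Xcl1 was at 1.70 (adjusted p = 0.083), Ccl3 at 0.45, Ccl4 at 0.97 and Ccl5 at −0.46. That setting kept the deepest cell of each clonotype, leaving 35 to 47 expanded cells a library against 88 to 172 single-clone cells. Expanded cells were thus picked by depth, and single-clone cells were not. The Xcl1 call was also lost without replicate 2 (1.89) or 4 (1.86).

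In CD4 conventional cells, expansion went with Xcl1, Ccl3 and Ccl4 but not with Ccl5, so 3 of 4 genes were called, where 29.2% of all genes were called (14.5% higher, 14.7% lower). Xcl1 had 167, 171, 105 and 173 CPM in expanded CD4 conventional cells and 13.2, 26.6, 12.1 and 10.7 in single-clone ones (3.22 ± 0.21, adjusted p = 0.00011). Ccl3 had 38.8, 54.3, 76.3 and 61.8 against 1.96, 1.15, 3.33 and 8.46 (3.84 ± 0.30, adjusted p = 5.2e-05). Neither pair of groups overlapped, and the share of all genes without such overlap is not given here. Ccl4 had 118, 229, 239 and 259 against 27.0, 1.15, 6.24 and 35.7 (3.57 ± 0.74, adjusted p = 0.048), a call that was lost on leaving out any 1 of the 4 replicates, with log2 fold changes of 3.10 to 4.11. Ccl5 had 334, 350, 890 and 954 in expanded and 463, 465, 812 and 523 in single-clone cells, lower in replicates 1 and 2 and higher in 3 and 4 (−0.03 ± 0.32, adjusted p = 0.96). With 1 cell kept per clonotype, Xcl1 was still called (3.37), and Ccl3 (3.38, adjusted p = 0.10) and Ccl4 (3.40, adjusted p = 0.14) were not. Without Il21-positive cells Ccl4 was not called (2.29, adjusted p = 0.24), and Xcl1 (3.18) and Ccl3 (2.64) were.

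The Xcl1 difference in CD4 conventional cells lay both in the number of positive cells and in their content. Positive cells held 17.6 Xcl1 UMIs in expanded and 3.57 in single-clone cells, or 3.40 and 1.77 after thinning, the thinned shares were 3.28% and 1.10%, and the log2 fold change was 1.12 at a cap of 3 UMIs per cell. A single clone held 52.2%, 30.1%, 59.9% and 44.4% of the Xcl1 of paired CD62L-low CD4 conventional cells in replicates 1 to 4, and in replicates 2 and 3 that clone had 2 cells. In Treg, Ccl4 had 81.3, 61.9, 139 and 230 CPM in expanded cells and 2.06, 4.15, 1.62 and 23.1 in single-clone cells (3.99 ± 0.33, adjusted p = 2.1e-06), without overlap. Ccl4 was 1 of 2 genes tested, Ccl5 being at 0.25 ± 0.24 (adjusted p = 0.79), and 1.06% of all genes were called there (0.553% higher, 0.511% lower). Without the replicate as a block the Ccl4 call in Treg was lost (3.62, adjusted p = 0.14). The expansion effect did not pass as different between CD8 and CD4 conventional cells for any of the 4 genes by edgeR, where 8.1% of all genes were called (3.19% higher, 4.9% lower). By edgeR, 1 of the 4 was under an unadjusted p of 0.05, Xcl1 (−1.33 ± 0.40, adjusted p = 0.077), and DESeq2 called the same gene (−1.38).

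**Figure D4:**
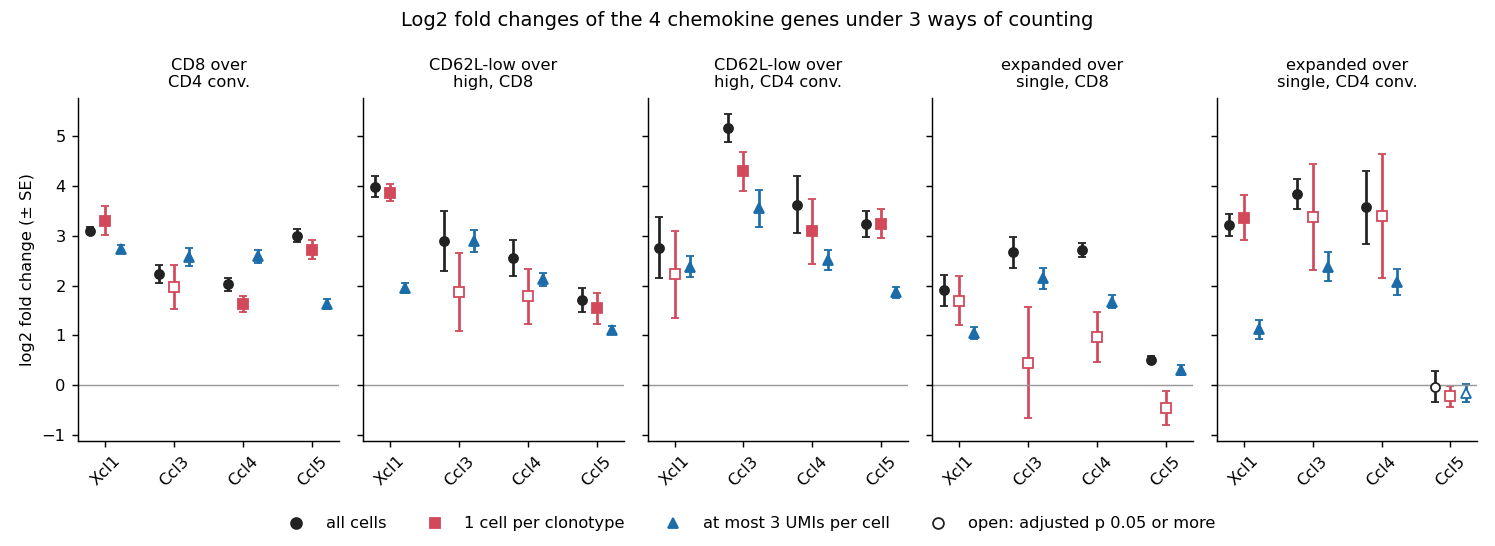
Log2 fold changes (± SE) of the 4 genes in 5 comparisons, with all cells (black circles), 1 cell per clonotype (red squares) and at most 3 UMIs of a gene counted per cell (blue triangles). Open symbols have an adjusted p of 0.05 or more; for expanded over single-clone CD8 cells the 1-cell-per-clonotype values are 1.70, 0.45, 0.97 and −0.46 and all are open.

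CD62L-low CD4 conventional cells with a UMI of Il21, which encodes a cytokine of follicular helper T cells and related CD4 cells, were set against those without one. Ccl3 had 49.9, 77.8, 111 and 82.6 CPM in Il21-positive cells and 7.86, 9.74, 6.97 and 15.5 in Il21-negative cells (2.92 ± 0.24, adjusted p = 8.1e-05). Ccl4 had 171, 313, 339 and 303 against 33.4, 34.9, 26.5 and 117 (2.5 ± 0.51, adjusted p = 0.0498), close to the threshold. Neither overlapped, and the share of all genes without such overlap is not given here. Of the 4 genes 2 were called, and 27.4% of all genes were called (13.4% higher, 14% lower). Ccl5 went the other way, with 30.7, 203, 94.3 and 263 CPM in Il21-positive and 569, 568, 1302 and 1158 in Il21-negative cells, lower in 4 of 4 libraries and without overlap, but it did not pass (−2.76 ± 0.60, adjusted p = 0.058, or −2.64 and 0.031 without the replicate as a block). Xcl1 had 6.01, 57.6, 123 and 215 against 136, 112, 22.9 and 35.9, lower in replicates 1 and 2 and higher in 3 and 4 (0.41 ± 1.36, adjusted p = 0.87).

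**Figure D5:**
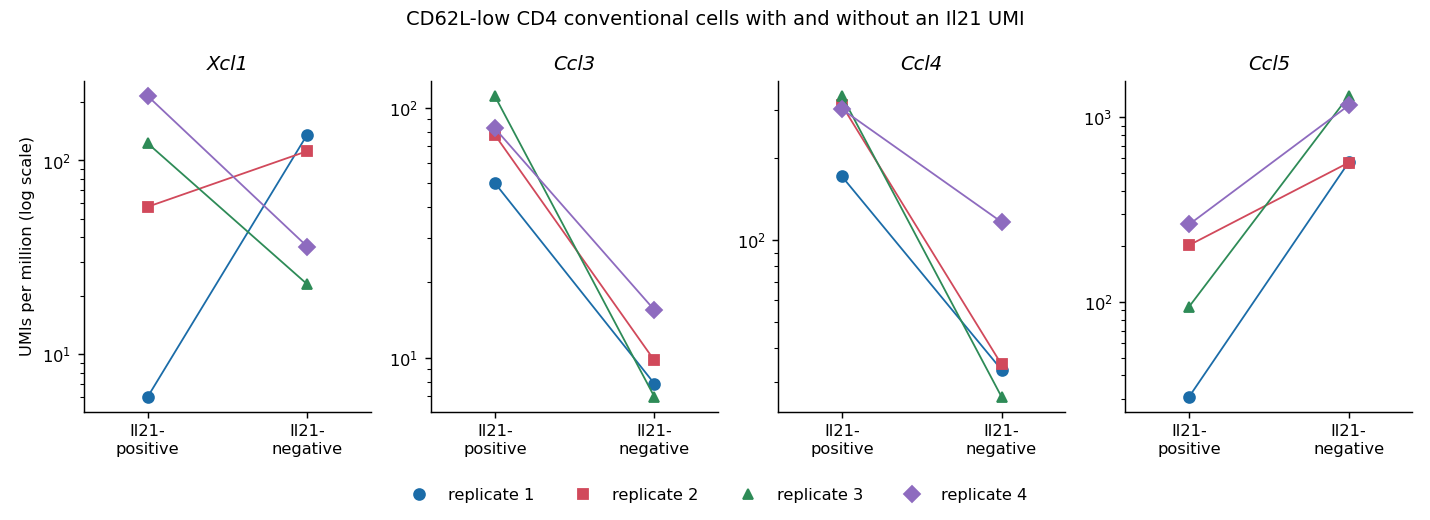
CPM (log axis, a separate range for each gene) in CD62L-low CD4 conventional cells with an Il21 UMI (left of each panel) and without (right), with 1 line per library. Ccl3 and Ccl4 are higher and Ccl5 is lower in Il21-positive cells in all 4 libraries, and the Xcl1 lines cross.

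The Il21-positive cells were 204, 214, 234 and 315 cells per library, with median depths of 5631, 6165, 4925 and 4390 RNA UMIs, against 3427, 3811, 3518.5 and 2859 in Il21-negative cells. After thinning, Ccl3 was read in 2.73% of Il21-positive and 0.943% of Il21-negative cells, Ccl4 in 5.37% and 1.79%, and Ccl5 in 6.03% and 15.1%, each in the same direction in 4 of 4 libraries (exact permutation p = 0.13). Il21-positive cells with a paired receptor were in expanded clones in 84.6%, 91.8%, 76.0% and 80.7% of cases, against 39.0%, 32.7%, 34.8% and 37.0% of the Il21-negative ones. Within expanded clones alone Ccl4 was not called (2.34, adjusted p = 0.22), and with 1 cell per clonotype neither gene was (Ccl3 2.61, adjusted p = 0.13; Ccl4 2.08). Of the 9 CD4 conventional cells that carried 50% of the Ccl3 sums, 8 were Il21-positive, as were 8 of the 11 for Ccl4, 5 of the 12 for Xcl1 and 7 of the 90 for Ccl5. Capped at 3 UMIs per cell, the log2 fold changes were 1.13 for Ccl3 and 0.89 for Ccl4, both called.

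Of 37 other chemokine ligand genes, 31 had under 50 UMIs over all 24 population sums and 14 had none. Cxcl10, a ligand of CXCR3 induced by interferon, was higher in CD62L-low than CD62L-high cells among CD8 cells (3.92 ± 0.33) and CD4 conventional cells (3.71 ± 0.24). Cxcl13, the ligand of CXCR5 that draws in B cells, was higher in expanded than in single-clone CD4 conventional cells (5.33 ± 0.34), and so was Ccl1, a ligand of CCR8 (2.92 ± 0.32). In Treg against CD4 conventional cells Ccl1 (−3.99 ± 0.35) and Cxcl13 (−3.14 ± 0.58) were lower.

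Of the genes that TCR signals induce together with the chemokines, 8 of 13 tested were higher in expanded than in single-clone CD8 cells (19.1% of all genes were), led by the nuclear receptor gene Nr4a2 (2.17 ± 0.12) and the transcription factor gene Egr2 (1.59 ± 0.22), and the list had a median of 0.867 against −0.0016 over all genes. In CD4 conventional cells 9 of 15 were higher in expanded cells (14.5% of all genes), led by Irf4 (1.37 ± 0.09) and Egr2 (1.33 ± 0.15), and 10 of 15 in Il21-positive cells (13.4% of all genes), led by Egr2 (1.78 ± 0.11) and Egr3 (1.43 ± 0.26). For CD62L-low over CD62L-high cells, 11 of 15 were higher and 1 lower in CD4 conventional cells (23.9% and 23.3% of all genes), led by the interferon-γ gene Ifng (3.25 ± 0.19) and the interleukin gene Il2 (2.64 ± 0.28). In CD8 cells 7 of 14 were higher and 3 lower (21.1% and 19% of all genes), with Tnfrsf9, which encodes 4-1BB, at 2.65 ± 0.15 and Ifng at 1.83 ± 0.22. In CD8 over CD4 conventional cells 3 of 15 were higher, among them Crtam (2.91 ± 0.20), and 5 lower, among them Il2 (−3.88 ± 0.38), where 22% and 19.6% of all genes were called higher and lower.

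Of the cytotoxic granule genes, all 7 tested were higher in CD8 than in CD4 conventional cells (22% of all genes were), led by the granzyme genes Gzma (4.05 ± 0.18) and Gzmb (3.24 ± 0.30). In Il21-positive CD4 conventional cells, where Ccl3 and Ccl4 were higher, 5 of 6 cytotoxic genes were lower (14% of all genes), led by Gzmb (−4.35 ± 0.43) and Prf1, the perforin gene (−3.63 ± 0.41). Of 11 transcription factor genes linked to these chemokines, 7 were higher and 2 lower in CD8 than in CD4 conventional cells (22% and 19.6% of all genes), led by Eomes (3.85 ± 0.41) and Zeb2 (1.39 ± 0.17). In expanded over single-clone CD8 cells 5 were higher and 1 lower (19.1% and 18.1% of all genes), led by Prdm1 (2.56 ± 0.24) and Batf (1.56 ± 0.11). Of genes that tissue dissociation induces, 5 of 13 were higher in expanded CD8 cells (19.1% of all genes), led by Ier3 (1.30 ± 0.20) and Dusp1 (0.95 ± 0.14), while in CD8 over CD4 conventional cells 3 of 14 were higher and 8 lower (22% and 19.6% of all genes), with Atf3 at −2.21 ± 0.43 and Ier3 at 1.5 ± 0.19. Their part in the chemokine differences was not tested.

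Across the 24 sums of population, CD62L side and library, the gene most like Xcl1 was Itga1, an integrin gene of tissue-resident cells (Pearson r = 0.88 of log2 CPM, among 10446 genes), followed by Klrk1 (0.85) and Rfc1 (0.83). For Ccl3 it was Ifng (0.94), with Dapk2 and Sytl3 at 0.88, and for Ccl4 Sntb2 (0.90), with Id2 and Ifng at 0.87. For Ccl5 the nearest were Nkg7, a cytotoxic granule gene, Sytl3 and Dapk2, all at 0.94. Among the members themselves r ran from 0.68 for Ccl4 with Xcl1 to 0.87 for Ccl3 with Ccl4. The sums share libraries and lineages, so these values describe the pattern only.

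Other cells in the sort could bring these transcripts too. For comparison, B cell barcodes were taken with no CD3 chain UMI, no TRB chain, no myeloid gene UMI and at least 5 UMIs of B cell genes. They differ from the barcodes that the B cell and myeloid filter removed, which held a CD3 chain UMI. The B cell barcodes (1067, median 3156 to 4206 RNA UMIs) had no Xcl1 UMI, which allows a share of up to 0.281%. Before thinning, they held Ccl3 in 0.426% to 0.769% of barcodes, Ccl4 in 0.592% to 3.33% and Ccl5 in 1.18% to 7.69% per library. The shares of Ccl3 and Ccl4 in CD62L-high CD4 conventional cells (means of 0.19% and 0.67%) lie within or under these ranges. So do those of single-clone CD62L-low CD4 conventional cells (0.742% and 1.404% before thinning). After thinning, Ccl4 was read in 0.444% to 2.95% of the B cell barcodes. The thinned Ccl4 means of all CD62L-low CD4 conventional cells (2.46%) and of the Il21-negative ones (1.79%) lie within that range. No share of expressing cells is read from any of these values. The mean Ccl5 share of CD62L-high CD4 conventional cells was 5.66%, or 3.03% after thinning against 0% to 2.72% in the B cell barcodes. Their positive cells held 4.46 Ccl5 UMIs on average, against at most 2 in a B cell barcode. Myeloid barcodes (132, median 7826 to 13497 UMIs) were taken in the same way with the gene lists exchanged. They also had no Xcl1 UMI, which allows up to 2.27%, but Ccl3 in 3.33% to 17.1%, Ccl4 in 8.82% to 23.3% and Ccl5 in 11.8% to 55.6% of them. In the populations compared, the 9 myeloid and dendritic marker genes summed to 41.2 to 162 CPM in CD62L-low CD8 cells, 76.5 to 241 in CD62L-low Treg and 37.5 to 65.3 in CD62L-low CD4 conventional cells, with at most 4 of the 9 at 0 in a library. In CD62L-high cells they summed to 22.1 to 258 CPM in CD8 cells, 57.6 to 73.6 in Treg and 31.2 to 462 in CD4 conventional cells, with up to 7 of the 9 at 0 in Treg. Between the lineages, 2 of 3 tested genes of this list were higher in CD62L-low CD8 than in CD62L-low CD4 conventional cells. The 5 B cell genes summed to 9.43 to 13.9 CPM in CD62L-low CD8 cells, 2.32 to 6.44 in CD62L-low Treg and 3.30 to 6.11 in CD62L-low CD4 conventional cells, and to 9.46 to 21.6, 5.33 to 15.1 and 1.63 to 6.31 in the CD62L-high cells of these lineages. The NK cell genes Ncr1, Klrb1c and Klra8 were at or near 0, with at most 2.69 CPM in CD62L-low CD8 cells, none in CD62L-low Treg and 2.90 at most in CD62L-low CD4 conventional cells, and at most 3.04, 10.8 and 0.17 on the CD62L-high side. Although cells positive for the TCR β chain were sorted, the 4 γδ T cell genes summed to 95.5 to 123 in CD62L-low CD8 cells, 3.15 to 20.3 in CD62L-high CD8 cells, 9.39 to 11.3 in CD62L-low and 0.54 to 5.40 in CD62L-high CD4 conventional cells, and at most 21.5 in Treg. The part of myeloid and γδ T cell transcripts in the results was not tested.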

How the data were processed

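The authors deposited raw UMI counts of genes and antibodies for each barcode, written by Cell Ranger 4.0.0 per the file headers. Build mm10 and Seurat stand in the submitters' processing notes without a role or a Seurat version. The deposited contig tables give counts of UMIs and reads per TCR chain.

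Barcodes were kept with at least 500 UMIs, 300 genes and 1 CD3 chain UMI, at most 8% mitochondrial UMIs and 1 TRB chain, and fewer than 2 UMIs over a short list of B cell genes or over myeloid genes (Lyz2, Csf1r, Adgre1, Cd68, C1qa, C1qb). No doublet caller was run, so doublets of T cells with 1 TRB chain read remain. Cells with 4 to 9 CD62L counts were in neither CD62L group. Cells of a library with the same productive CDR3 nucleotide sequences, over 1 TRB and 1 or 2 TRA chains, formed a clonotype, and clones from 2 cells up count as expanded. Clone size was taken over all kept barcodes of the library. Where 1 cell per clonotype was kept, it was the cell with most RNA UMIs.

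For each library the UMIs of a population were summed, and the sums were tested with edgeR 4.0.16 (R 4.3.3, limma 3.58.1): filterByExpr, TMM scaling and a robust quasi-likelihood fit, with the replicate as a block. Sums under 10 cells were not used. Adjusted p-values are Benjamini-Hochberg values over all genes tested, with calls under 0.05, and the SE is the log2 fold change over the root of F. The groups compared come from the same libraries, which pairs them. Over 36 pairs of sums the residuals of same-numbered samples correlated by −0.069 to 0.38, with 29 pairs above 0.1. Shares of cells were compared by an exact sign-flip permutation test over the 4 libraries, two-sided. The tests were tried on simulated data.

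Alternatives were DESeq2 1.42.0, RLE size factors, no filter on low counts, no block, leaving out each replicate, 1 cell per clonotype, a cap of 3 UMIs per cell, thinning to 1500 UMIs, CD11a of at least 20, no B cell and myeloid filter, leaving out cycling cells or cells with an iNKT receptor (TRAV11-TRAJ18), and other bounds for CD62L, clone size and Il21. Added after seeing the data were a stricter cycling list, leaving out replicates 3 and 4, only expanded or only single clones, no Il21-positive cells and, for Il21, expanded clones only.

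Some genes of the lists are not reported here. The 4 genes and the lists were chosen with earlier results of these data known. Besides the members, the text names the 3 genes most like each member and, per list and comparison, called genes among the 2 with the largest log2 fold change in the same direction in 4 of 4 libraries. Exact intervals and limits at a count of 0 (3 counts, 95% level) cover counting error only. Python 3.11.15, scipy 1.17.1, numpy 2.4.6, pandas 2.3.3 and matplotlib 3.10.9 were used.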

Additional observations from a re-analysis of the deposited data

Results flagged for a closer look

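In groups of 4 libraries, 14 of 69 values checked (20.3%) had 1 library far from the others by Dixon's test at the 95% level, where chance gives about 1 in 20. Several share a library and a few cells.

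Replicate 3 was low for Xcl1 in CD62L-low CD8 cells (465 CPM, the others 762 to 807) and in CD62L-low CD4 conventional cells (51.3, the others 91.4 to 99.2).

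In CD62L-low Treg, replicate 3 was high for Xcl1, with 58.8 CPM against 2.04 to 7.72, a thinned share of 3.01% against 0% to 0.481%, and 10.5 UMIs per positive cell against 3 to 3.33. It was also high for Ccl4 per positive cell, with 32.4 UMIs against 5.50 to 7.09. In CD62L-high Treg, replicate 2 had 154 CPM of Xcl1 against 2.51 to 7.11 and 16 per positive cell against 1 to 1.33, and 4.80 CPM of Ccl3 against 0, which is 1 UMI. Replicate 1 had 32 Ccl5 UMIs per positive CD62L-high Treg against 5.22 to 6.50.

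In CD62L-high CD4 conventional cells, replicate 4 had 29.8 CPM of Ccl4 against 0.54 to 3.38 and 12.6 per positive cell against 1 to 2.12. In CD62L-low CD4 conventional cells, replicate 2 had 21 Ccl4 UMIs per positive cell against 12.9 to 14.1. In CD62L-high CD8 cells, replicate 1 had 16 Ccl3 UMIs per positive cell against 1 to 3.20.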

How the results depend on the processing

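Of 25 results in which a member was called, 469 alternatives were run: 468 kept the direction, 397 also kept the call and 71 lost it. The exception in direction was Ccl5 in expanded against single-clone CD8 cells, at −0.46 with 1 cell per clonotype. DESeq2, RLE size factors, the cap of 3 UMIs and leaving out TRAV11-TRAJ18 cells lost no call that they tested, and Ccl4 for CD62L in Treg could not be tested at the cap. Keeping 1 cell per clonotype lost 11 of 24 besides that reversal, leaving out cycling cells by a list that marks most cells lost 7 of 24, and leaving out replicate 2 lost 9 of 25. Where no cause is named, it was not tested.

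The number of the 4 genes called changed as follows. For Treg against CD4 conventional cells (1 called) it was 3 with DESeq2, 2 without the replicate block, 2 at the cap of 3 UMIs, 2 without cycling cells, 4 without replicates 3 and 4, and 1 to 3 on leaving out each replicate. For CD62L in CD8 cells (4) it was 2 when each clonotype gave 1 cell and 1 to 3 on leaving out each replicate. For CD62L in CD4 conventional cells (4) it was 2 to 3 on leaving out each replicate. For CD62L in Treg (2) it was 0 with the stricter cycling list, 1 to 2 on leaving out each replicate, and 1 without the replicate block, without the B cell and myeloid filter, at the cap, without cycling cells, without replicates 3 and 4 and with CD62L-high from 20 counts. For expansion in CD8 cells (4) it was 0 when each clonotype gave 1 cell and 1 without cycling cells. In CD4 conventional cells (3) it was 2 without Il21-positive cells and 1 when each clonotype gave 1 cell. In Treg (1) it was 0 without the replicate block, with 1 cell per clonotype and with all Treg. For Il21 (2) it was 1 without the low-count filter, with CD11a of at least 20, thinned and in expanded clones, 0 with 1 cell per clonotype and without cycling cells, and 1 to 2 on leaving out each replicate. For the CD62L effect between lineages (0) it was 1 with DESeq2, without replicates 3 and 4 and with CD62L-high from 20 counts, and 0 to 1 on leaving out each replicate. For the expansion effect between lineages (0) it was 1 with DESeq2, 4 without the low-count filter and 1 without TRAV11-TRAJ18 cells. Without the replicate block the calls of Ccl5 for CD62L in CD8 cells and Treg, of Ccl5 for expansion in CD8 cells and of Ccl4 for expansion in Treg were lost, Ccl5 was called for Treg against CD4 conventional cells and for Il21, and no other call of a member changed.

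Over all genes, calls ranged from 1135 (single clones) to 4762 for CD8 against CD4 conventional cells (4504), 1159 to 4571 for Treg against them (3297), 743 to 4376 for CD62L in CD8 cells (3958), 2662 to 5454 in CD4 conventional cells (5105) and 136 to 681 in Treg (314). For expansion they ranged from 377 to 4998 in CD8 cells (3291), 1073 to 5244 in CD4 conventional cells (2901) and 16 to 667 in Treg (77), for Il21 from 373 to 4995 (2790), and for the effects between lineages from 112 to 672 (547, and 263 without the replicate block) and 13 to 1569 (832).

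With 34 to 75 CD62L-high Treg a library, Xcl1 and Ccl3 could not be tested for CD62L in Treg.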
